A study of Mus musculus with 168 samples.

Results

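The clock output and secondary-loop factors of the mouse brain were followed through hypoxia and reoxygenation in 7 brain regions. The genes were Dbp, Tef, Hlf, Nfil3, Nr1d1, Nr1d2, Bhlhe40, Bhlhe41, Rora and Rorb, and they were chosen by name. Every probe set that the platform annotation gives to 1 of these genes alone was taken. This gave 26 of the 45101 probe sets of the array and 10 of the 18193 genes that have a probe set of their own. Rora had 9 probe sets, Tef and Rorb 3 each, Dbp, Hlf, Nr1d2 and Bhlhe41 2 each, and Nfil3, Nr1d1 and Bhlhe40 1 each. A gene is given below by its brightest probe set over all arrays, called its lead probe set, unless another is named.

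The circadian clock of mammals is a feedback loop in which BMAL1 (the product of Arntl) with CLOCK or NPAS2 switches on the Per and Cry genes, whose proteins then repress their own transcription. The genes described here lie beside that core. DBP, TEF and HLF are activators of the PAR bZIP family that bind D-box elements in clock-controlled genes, and NFIL3 (E4BP4) is a repressor of the same elements. Nr1d1 and Nr1d2 encode REV-ERB alpha and beta, nuclear receptors that repress Arntl, while the ROR receptors encoded by Rora and Rorb activate it through the same response elements. Bhlhe40 and Bhlhe41 (DEC1 and DEC2) encode repressors that compete for the E-boxes of BMAL1 and CLOCK, and Bhlhe40 is also known as a target of the hypoxia-inducible factor HIF in cultured cells.

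All mice were C57BL/6 males of 8 to 9 weeks. Hypoxia was 8% oxygen, lasting 1 hour at H1 and 3 hours at H3. The reoxygenation groups R1, R3, R6, R12 and R24 had the 3 hours of hypoxia and then as many hours of room air as the name says (1, 3, 6, 12 or 24), while control mice were sham-treated with 3 hours of room air in the chambers and 24 hours in their home cages. Cerebellum, midbrain, hippocampus, thalamus, pons and medulla, striatum and cerebral cortex each gave 3 arrays of the Mouse Genome 430 2.0 type per group, 24 for a region. Counted from entry into the chamber, tissue was taken after 1 hour at H1, 3 hours at H3, 4 at R1, 6 at R3, 9 at R6, 15 at R12 and 27 at both R24 and in the controls. If all exposures began at the same hour of the day, H3, R24 and the controls were therefore sampled at the same clock hour and R12 lay 12 hours away from them, but the hour at which exposure began is not given in the sources used here. Time since hypoxia and hour of the day change together at H1, R1, R3, R6 and R12 and cannot be told apart there. H3 can be set against the controls and against R24 at that assumed hour, but H3 mice came straight from the chamber. Controls and R24 mice had spent 24 hours in home cages since, and no group was sampled straight after room air in the chamber. Hypoxia and recent time in the chamber therefore cannot be told apart at H3.

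Of the markers chosen for each region, 2 of 3 for cortex, 3 of 5 for hippocampus, 3 of 3 for striatum, 5 of 5 for thalamus, 3 of 5 for midbrain, 4 of 4 for pons and medulla and 5 of 5 for cerebellum were highest in their own region in the control arrays. The median intensity of an array lay between 39.6 and 51.8, and 23.3 to 30.2% of its values were below 16. Markers of oligodendrocytes, astrocytes, microglia, endothelium, choroid plexus, meninges and blood were counted at H3 and R1, and the only one that passed in any region was 1 of 5 oligodendrocyte markers, higher in the cerebral cortex at both times, where neither Bhlhe40 nor Nr1d1 was called against control. The 4 choroid plexus markers passed in no region, but their level varied widely between arrays. In cerebellum their median change was 0.72 at H3 (0.31 to 1.64) and 0.39 at R1 (0.13 to 1.75), with a summed intensity of 2697 to 5497 at H3 and 3396 to 4735 at R1, against 512 to 5045 in controls. In midbrain it was -0.06 at H3 (-0.15 to 1.87) and 0.40 at R1 (-0.13 to 2.58), with sums of 749 to 3778 at H3 and 1006 to 5129 at R1, against 278 to 4349. Their part in the cerebellum and midbrain results below was not tested. In bulk tissue, fewer cells that express a gene and less RNA per cell cannot be told apart.

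RefSeq promoters (GRCm38.p6, 250 bases before to 50 after the start site) were at hand for 9 of the 10 genes, Bhlhe40 being the one left out, and 4 of them are shown because the results below turn on their genes. Dbp is at chr7:45704997-45705296 on the plus strand, Tef at chr15:81802423-81802722 on the plus strand, Nr1d1 at chr11:98775328-98775627 on the minus strand and Nr1d2 at chr14:18239057-18239356 on the minus strand. Bhlhe40 itself lies at chr6:108660629-108666925. Capitals mark matches on either strand to the E-box CACGTG, the D-box TTATGTAA or TTACGTAA, the ROR and REV-ERB core AGGTCA, and the HIF core ACGTG, which every CACGTG also holds.
Dbp: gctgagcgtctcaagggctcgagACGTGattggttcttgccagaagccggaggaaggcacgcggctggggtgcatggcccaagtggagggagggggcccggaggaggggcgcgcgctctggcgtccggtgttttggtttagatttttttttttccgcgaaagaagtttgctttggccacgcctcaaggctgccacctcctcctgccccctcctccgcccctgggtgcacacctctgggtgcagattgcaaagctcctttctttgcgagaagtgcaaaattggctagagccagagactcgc
Tef: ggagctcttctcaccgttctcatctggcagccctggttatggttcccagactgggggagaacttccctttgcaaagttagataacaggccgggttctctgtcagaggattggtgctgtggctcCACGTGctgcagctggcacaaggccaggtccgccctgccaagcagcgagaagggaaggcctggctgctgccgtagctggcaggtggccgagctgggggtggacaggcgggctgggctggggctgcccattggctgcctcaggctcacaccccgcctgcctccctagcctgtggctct
Nr1d1: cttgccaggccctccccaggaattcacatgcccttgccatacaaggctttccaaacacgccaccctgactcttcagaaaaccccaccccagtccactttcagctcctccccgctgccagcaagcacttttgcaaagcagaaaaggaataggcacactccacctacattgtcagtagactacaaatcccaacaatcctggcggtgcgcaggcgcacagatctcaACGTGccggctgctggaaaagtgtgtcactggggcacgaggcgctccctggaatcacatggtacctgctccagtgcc
Nr1d2: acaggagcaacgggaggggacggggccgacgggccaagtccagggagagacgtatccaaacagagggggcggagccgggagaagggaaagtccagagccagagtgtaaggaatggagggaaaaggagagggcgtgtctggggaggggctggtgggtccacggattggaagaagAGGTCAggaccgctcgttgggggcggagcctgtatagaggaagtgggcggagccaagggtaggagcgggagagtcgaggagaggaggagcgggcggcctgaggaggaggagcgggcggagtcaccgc
The Tef promoter held an E-box 127 bases before the start site and the Nr1d2 promoter an AGGTCA core 77 bases before it. Those of Dbp and Nr1d1 held only a HIF core outside any E-box, 227 and 27 bases before the start. Among the other genes, Bhlhe41 and the second Tef start had an E-box, Nfil3 an AGGTCA core, Rora and the second Rorb start a HIF core outside an E-box, and Hlf and the first Rorb start none of the motifs. No promoter of the 9 genes held a D-box of these letters. Of all 32851 promoters in the table, 7.15% held the E-box, 1.06% the D-box, 16.3% the AGGTCA core, 19.6% the HIF core and 13.6% a HIF core outside an E-box.

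In the control brains the ROR receptor genes Rora and Rorb were the most regional of the 10 genes. Rora intensity averaged 2755 ± 469 in thalamus, 2080 ± 136 in cerebellum, 1298 ± 111 in midbrain, 667 ± 38.2 in cerebral cortex, 627 ± 24.3 in pons and medulla, 423 ± 98.6 in striatum and 364 ± 28.0 in hippocampus (SD, n = 3 each). The single control arrays read 3245, 2310 and 2712 in thalamus and 333, 386 and 375 in hippocampus, so the extremes lay far apart. On the log2 scale thalamus exceeded hippocampus by 2.85. Neighbours in this order differed except cerebral cortex from pons and medulla (limma, adjusted p = 0.742) and striatum from hippocampus (adjusted p = 0.504), the step of thalamus over cerebellum being the narrowest that passed (0.39, adjusted p = 0.0476).

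Rorb was brightest in thalamus, at 603, 501 and 486, and in cerebral cortex, at 493, 487 and 462, and these 2 regions did not differ beyond their spread (adjusted p = 0.534). Midbrain followed at 313 ± 22.9, below cortex (adjusted p = 0.00066). Pons and medulla, hippocampus and striatum averaged 165, 164 and 162 without passing between neighbours (adjusted p = 0.969 and 0.976), and cerebellum was lowest at 108, 84.8 and 93.0 (0.68 below striatum, adjusted p = 0.000117). Rora and Rorb thus shared the thalamus as their highest region, while the cerebellum was second for Rora and last for Rorb.

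The outputs of the clock were more even. Dbp was highest in striatum, at 1394, 936 and 1318, and lowest in hippocampus, at 596, 383 and 623, 1.17 apart on the log2 scale, and no neighbouring regions in its order differed (adjusted p of 0.0561 for striatum over thalamus and 0.595 or above for the rest). Tef spanned 0.79 between striatum (1456 ± 98.3) and pons and medulla (834 ± 57.1). Hlf ran from 908 ± 50.6 in cerebral cortex to 341 ± 13.8 in cerebellum, with steps that passed below striatum, below hippocampus and above cerebellum (adjusted p = 0.0138, 0.0115 and 0.0129). Nr1d1 and Nr1d2 both peaked in cerebellum, Nr1d1 at 237 ± 14.7 against 104 ± 7.43 in hippocampus and Nr1d2 at 1438 ± 138 against 826 ± 66.9, and hippocampus was the lowest region of both. Bhlhe40 ran from 563 ± 112 in cerebral cortex to 231 ± 53.1 in striatum. Nfil3 and Bhlhe41 were dim everywhere, with region means of 26.3 to 61.3 and 32.2 to 57.3, and Bhlhe41 was the only gene whose lead probe set did not differ between regions (F-test, adjusted p = 0.162). In all, 23 of the 26 probe sets differed between regions in the control arrays, where 41.4% of all probe sets did.

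Of the 16 other probe sets, 9 had the same highest region as the lead of their gene and 7 another. Thalamus was the highest region in 5 of the 8 further Rora probe sets, with means of 274 to 1807, and cerebellum in 2, while the ninth, with a mean of 14.4 over all arrays, did not differ between regions (F-test, adjusted p = 0.216). The 2 further Rorb probe sets were highest in cerebral cortex, at 339 and 232, where the lead had thalamus and cortex side by side. Dbp was again highest in striatum (851), Hlf in cerebral cortex (655) and Nr1d2 in cerebellum (282). Levels of different probe sets are not comparable with each other.

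**Figure D1:**
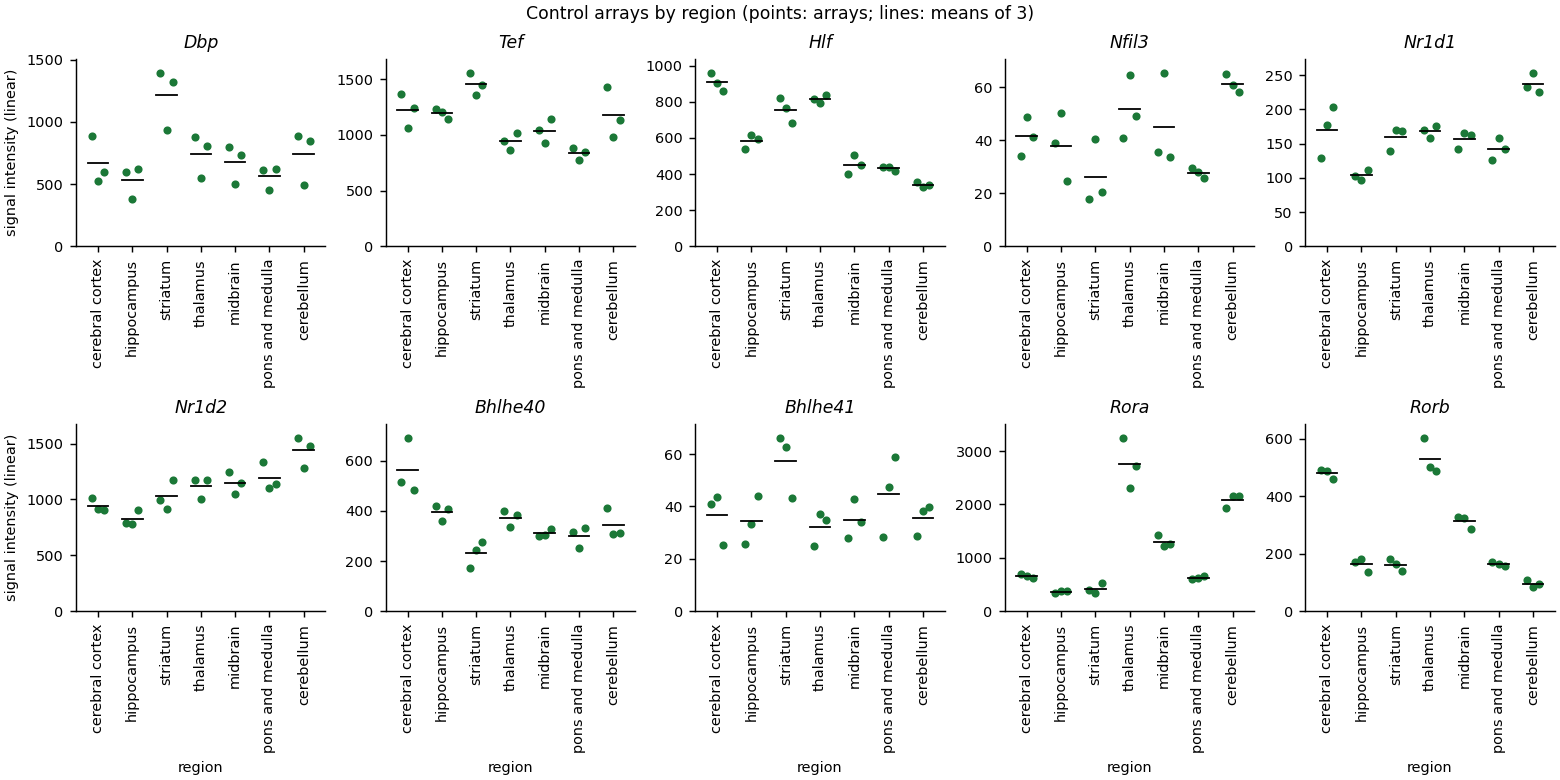
Linear signal intensity of each gene in the control arrays (y axis) by brain region (x axis). Points are arrays and lines the means of 3. Rora and Rorb spread most between regions, with thalamus at 2755 and 530 and hippocampus at 364 and 164, while no array of Nfil3 or Bhlhe41 exceeds 66.1.

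Bhlhe40, the DEC1 repressor, was higher at H3 and R1 and was not called from R3 onward. In the cerebellum its intensity was 615, 666 and 558 at H3 and 649.9, 722 and 561 at R1, against 413, 308 and 311 in the controls. Every H3 and R1 array lay above every control array. The change was 0.81 ± 0.16 at H3 (log2, SE; adjusted p = 0.0147) and 0.88 ± 0.16 at R1 (adjusted p = 0.00945). In the midbrain it read 491, 577 and 436 at H3, against 301, 305 and 326 in the controls, again without overlap, a rise of 0.65 ± 0.13 (adjusted p = 0.031). These calls rested on single arrays: in cerebellum the H3 call was lost without control 2, control 3, H3 1 or H3 2 (0.74 to 0.81, adjusted p of 0.0501 to 0.0841) and the R1 call without control 2 or R1 2 (0.80 and 0.81, adjusted p of 0.0588 to 0.061), and in midbrain the call was lost without any 1 control, H3 1 or H3 2 (0.55 to 0.69, adjusted p of 0.0702 to 0.181).

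The other regions showed changes in the same direction that did not pass there. At H3 they were 0.77 ± 0.20 in striatum (398, 449 and 353, against 174, 243 and 278 in controls; adjusted p = 0.169), 0.57 ± 0.13 in hippocampus (adjusted p = 0.0981) and 0.54 ± 0.13 in pons and medulla (adjusted p = 0.153). The H3 arrays lay above the controls in 5 of 7 regions and the R1 arrays in 6 of 7, where 5.46% and 5.98% of all probe set by region pairs did so. Cerebral cortex (776, 605 and 636 at H3, against 514, 692 and 483 in controls) and thalamus (389, 511 and 461, against 400.2, 334 and 384) overlapped at H3, and their changes were 0.26 and 0.27. No difference between regions in the size of the change passed its test (adjusted p = 0.782 at R1 and near 1 at H3), in which 0.135% of all probe sets passed at R1 and 0.0222% at H3.

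Nr1d1, the REV-ERB alpha receptor, was higher at R1. Its intensity in the midbrain was 225, 244 and 222 at R1, against 141, 165 and 162 in the controls. In the striatum it was 228, 302 and 339.8 at R1, against 139, 169 and 169. In the hippocampus it was 170.3, 166 and 169 at R1, against 103, 96.9 and 112. In these 3 regions every R1 array stood above every control array, and the changes were 0.52 ± 0.09, 0.80 ± 0.17 and 0.63 ± 0.12 (adjusted p = 0.0196, 0.0369 and 0.0265). Each call was lost without control 1, control 2, R1 2 or R1 3, the midbrain and hippocampus calls also without R1 1, and the striatum call also without control 3 or R12 2 (adjusted p of 0.0511 to 0.168 over these). The cerebellum read 326, 299 and 395 at R1, against 232, 253 and 225, with a change of 0.49 ± 0.14 that did not pass (adjusted p = 0.108). The R1 arrays were above the controls in 6 of 7 regions, cerebral cortex being the region where they overlapped. The same was so for 5.98% of all probe set by region pairs.

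Taken by region, 2 of the 70 gene by region pairs were called higher at H3 and 4 at R1 (Bhlhe40 in cerebellum and Nr1d1 in midbrain, striatum and hippocampus), and none lower at either time. Over all probe set by region pairs 0.157% were called higher at H3 and 0.158% at R1. Over all pairs 0.153% were called lower at H3 and 0.25% at R1. No pair was called at H1, R3, R6, R12 or R24 by limma, where 0.0301%, 0.00888%, 0.000634%, 0% and 0% of all pairs were called in either direction, and none of the 16 other probe sets was called at any time; at an unadjusted p below 0.05 the 70 pairs gave 6 higher and 1 lower at H1, 5 and 2 at R3, 2 and 0 at R6, 1 and 8 at R12, and 4 and 1 at R24, where 2.24 to 3.41% of all pairs were in each direction at these times. In the F-test over all time points 8 of 182 probe set by region pairs passed, 5 of Bhlhe40 (all regions but cerebral cortex and thalamus) and 3 of Nr1d1 (striatum, midbrain and cerebellum), where 0.96% of all pairs did.

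**Figure D2:**
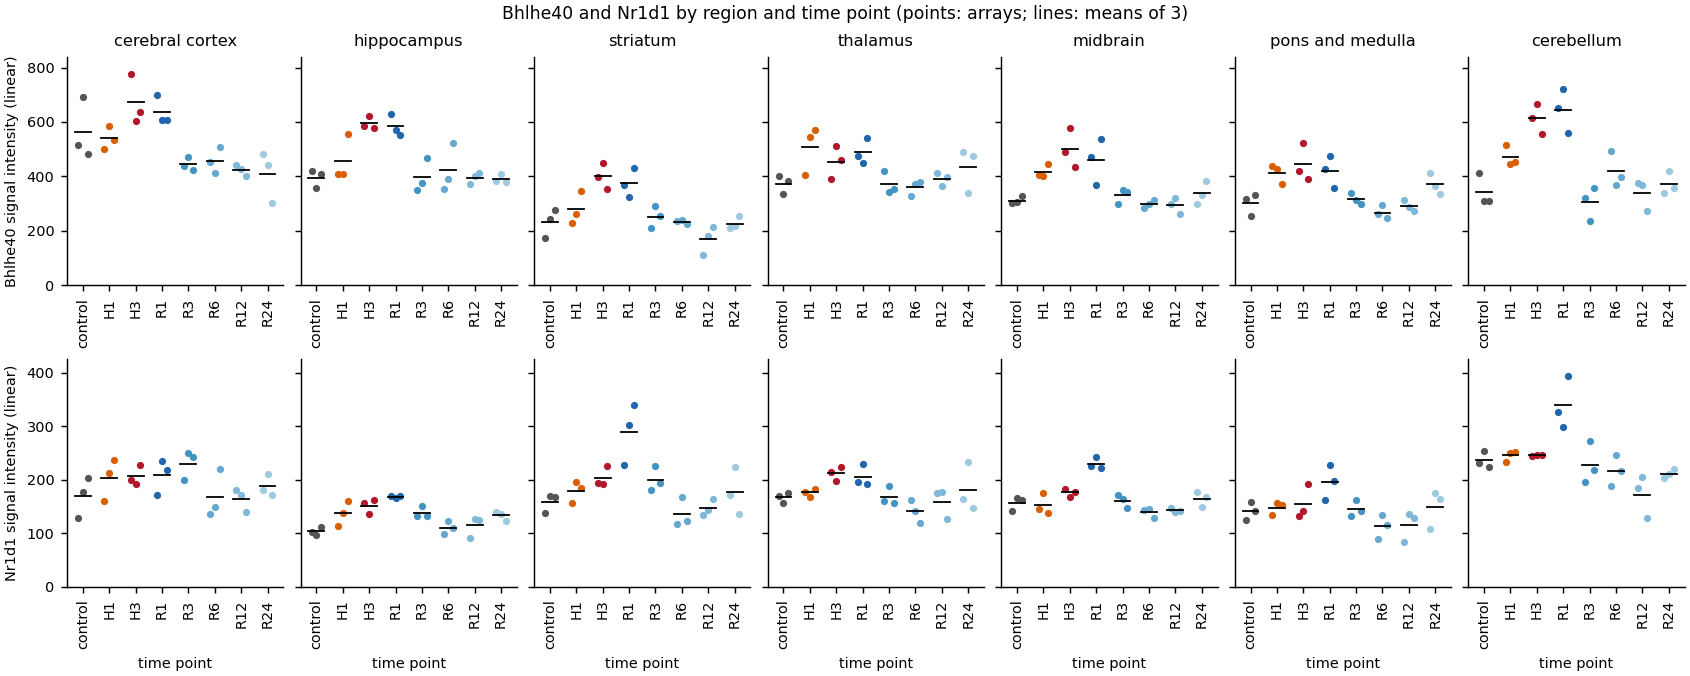
Linear signal intensity (y axis) of Bhlhe40, above, and Nr1d1, below, at each time point (x axis) in the 7 regions. Points are arrays and lines the means of 3. In the cerebellum Bhlhe40 is highest at H3 and R1 (558 to 722, against 308 to 413 in controls), and in the midbrain Nr1d1 is highest at R1 (222 to 244, against 141 to 165).

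Averaging over regions gave the 10 genes more precision, and it was done in 2 ways. The first fitted the arrays of all regions at once with arrays of 1 time point and replicate number as a block, which assigns every probe set the same correlation between regions. The second averaged the 7 regions of each time point and replicate number and tested the 24 resulting values, called mouse means here; the study used 24 mice, and the labels do not state that the number marks the mouse. The second way was chosen after the data were seen, because regions with the same number deviated together far more for some of these genes than for most probe sets. The intraclass correlation between regions was 0.65 for Dbp, 0.43 for Nr1d2, 0.29 for Tef, 0.24 for Nr1d1 and -0.04 for Bhlhe40, against a median of 0.06 and a 99th percentile of 0.41 over the 22518 brighter probe sets. The block used a correlation of 0.0369 for every probe set. For genes above it, Dbp and Nr1d2 most, the SE and p-values over arrays are therefore too small.

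Over mouse means, Bhlhe40 and Nr1d1 changed and the other 8 genes did not pass at any single time. Bhlhe40 averaged 8.72, 8.80 and 8.90 at H1, 9.04, 9.17 and 8.95 at H3 and 9.06, 8.97 and 9.03 at R1 on the log2 scale, against 8.50, 8.46 and 8.54 in controls. All 9 mice lay above all 3 controls, as was so for 6.09% of all probe sets at H1, 7.49% at H3 and 8.24% at R1. The rise was 0.30 ± 0.05 at H1 (adjusted p = 0.0139), 0.55 ± 0.05 at H3 (adjusted p = 2.45e-06) and 0.52 ± 0.05 at R1 (adjusted p = 6.59e-06). Over arrays the H1 call was lost without number 2 or 3 (adjusted p = 0.191 and 0.0560). Over mouse means it was lost without control 1, control 2, H1 2 or H1 3 (0.26 to 0.31, adjusted p of 0.0585 to 0.0827), while those at H3 and R1 held without any 1 mouse. At R3 the mice read 8.44, 8.45 and 8.52 and overlapped the controls. Over mouse means 0.0977% of all probe sets were called higher at H1, 1.2% at H3 and 1.65% at R1.

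Nr1d1 mouse means were 7.79, 8.00 and 7.99 at R1, against 7.33, 7.49 and 7.51 in controls, a rise of 0.49 ± 0.09 (adjusted p = 0.00148). At H3 they were 7.66, 7.61 and 7.80, also above every control, and the change of 0.25 passed over arrays (adjusted p = 0.00406) but not over mouse means (adjusted p = 0.144), and was lost over arrays without number 1 or 3 (adjusted p = 0.0957 and 0.0723). By R6 the values of 7.19, 7.42 and 7.31 overlapped the controls at their lower end. Across all 260 tests of a difference between regions on the 26 probe sets the lowest adjusted p was 0.588, with 8 at an unadjusted p below 0.05.

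**Figure D3:**
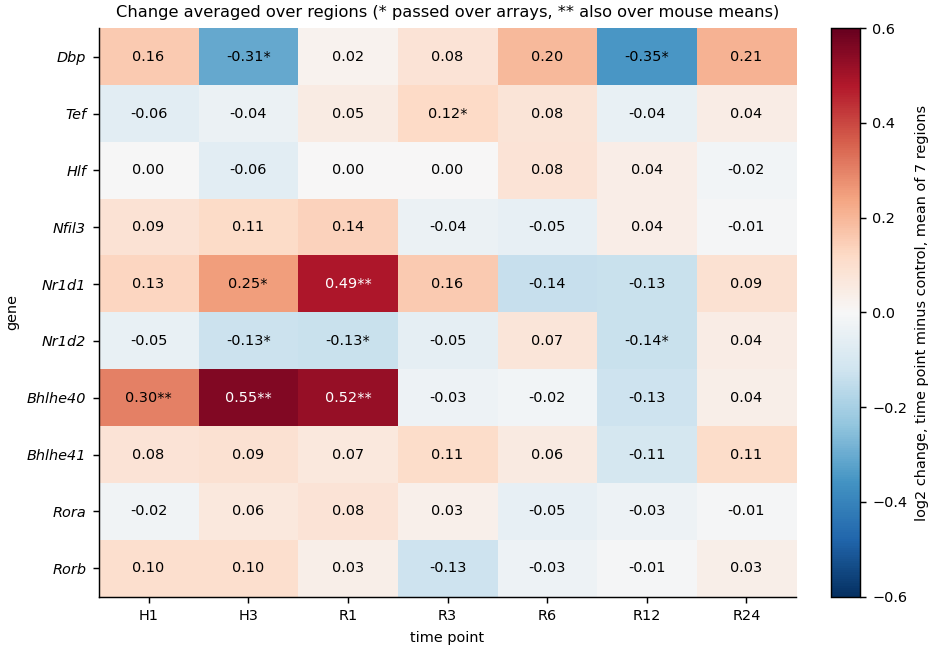
Log2 change from control averaged over the 7 regions (colour and number) for each gene (y axis) at each time point (x axis). One star marks a change that passed over arrays with the block and 2 stars one that also passed over mouse means, which are Bhlhe40 at H1, H3 and R1 (0.30, 0.55 and 0.52) and Nr1d1 at R1 (0.49).

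Dbp, a strongly rhythmic output of the clock in many tissues, was lower at H3 and R12 over arrays and varied most from mouse to mouse. Its mouse means were 9.46, 8.95 and 9.11 at H3, against 9.73, 9.09 and 9.61 in controls and 9.78, 9.73 and 9.55 at R24. Control 2 stood apart, with the lowest Dbp of the 3 controls in 7 of 7 regions, and it was the only control that lay within the range of H3. Over arrays the change at H3 was -0.31 ± 0.08 (adjusted p = 0.00288) and was negative in every region, from -0.44 in thalamus to -0.21 in midbrain; over mouse means it had an SE of 0.15 and did not pass (adjusted p = 0.374). Leaving out 1 mouse at a time, the change over mouse means ran from -0.50 without control 2 (adjusted p = 0.0717) to -0.18 without control 1 (adjusted p = 0.751), and it passed in 0 of these 24 fits. Over arrays it was lost without number 3 (-0.21, adjusted p = 0.30). At R12 the values were 9.10, 9.35 and 8.93 and the change was -0.35 over arrays (adjusted p = 0.00432), not passing over mouse means (adjusted p = 0.46). Over arrays it was -0.66 without number 2 (adjusted p = 5.39e-08) but -0.21 and -0.19 without number 1 or 3, where the call was lost (adjusted p = 0.468 and 0.629), and over mouse means it ran from -0.54 without control 2 to -0.22 without control 1. The second Dbp probe set gave -0.28 and -0.37.

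Nr1d2, encoding REV-ERB beta, was lower over arrays at H3 (-0.13 ± 0.04, adjusted p = 0.0147), R1 (-0.13, adjusted p = 0.00803) and R12 (-0.14, adjusted p = 0.0293), and passed at none of them over mouse means (adjusted p = 0.383, 0.268 and 0.523). Mouse means at R1 were 10.06, 9.94 and 9.91, against 10.17, 9.98 and 10.15 in controls, with an overlap at control 2. Each of these calls over arrays was lost without number 3 (adjusted p = 0.297, 0.352 and 0.706), that at H3 also without number 2 (adjusted p = 0.112) and that at R12 also without number 1 (adjusted p = 0.523). Tef was higher at R3 by 0.12 over arrays (10.25, 10.24 and 10.27, against 10.23, 10.00 and 10.16 in controls, without overlap, as for 6.32% of all probe sets; adjusted p = 0.0483), which did not pass over mouse means (adjusted p = 0.423) and was lost over arrays without number 2 or 3 (0.06 and 0.13, adjusted p = 0.796 and 0.206).

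By the averaged fit over arrays, 2 genes were thus higher and 2 lower at H3, where 2.49% and 3.71% of all probe sets were called higher and lower. At R1 2 were higher and 1 lower (3.91% and 6.11%), at H1 1 was higher (0.58%), at R3 1 was higher (1.59%) and at R12 2 were lower (0.306%). The remaining genes passed at no time in either fit. Hlf mouse means stayed between 9.12 and 9.36 and Rora between 9.76 and 9.97. Nfil3, whose repressor opposes DBP, lay between 5.66 and 6.08, with changes of 0.11 at H3 and 0.14 at R1 (adjusted p = 0.751 and 0.543 over mouse means). Bhlhe41, close to Bhlhe40 in sequence and role, changed by 0.09 at H3 and 0.07 at R1 (adjusted p = 0.783 and 0.789). Rorb was lowest at R3 (7.73, 7.83 and 7.91, against 8.06, 7.95 and 7.84 in controls; adjusted p = 0.349).

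**Figure D4:**
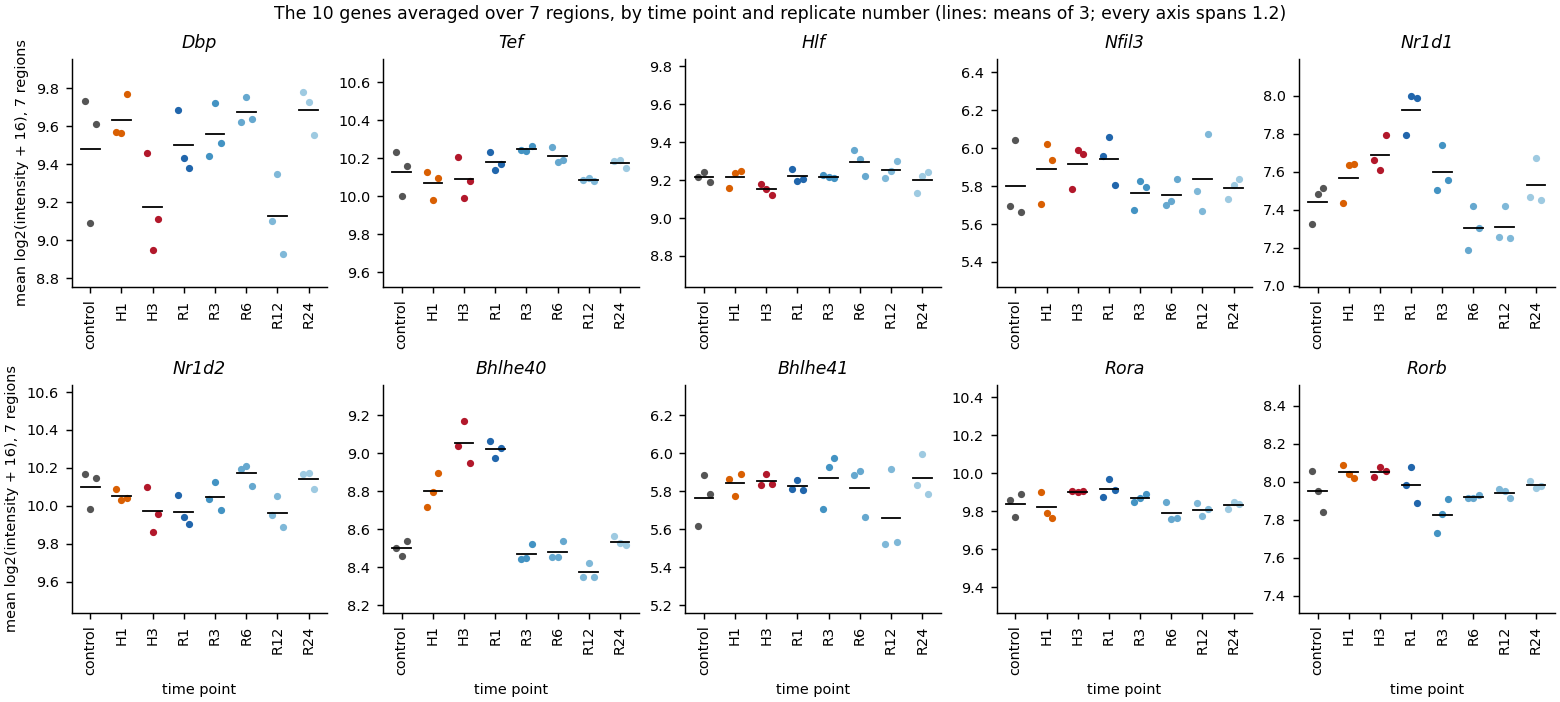
Mean log2(intensity + 16) over the 7 regions (y axis) for each time point and replicate number (points) by time point (x axis), with lines at the means of 3. Every axis spans 1.2 log2 units. Bhlhe40 and Nr1d1 stand above the controls at R1, and Dbp is lowest at H3 and R12 with the widest scatter between mice.

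Setting the time points against R24 rather than the controls compares mice that all went through hypoxia. Bhlhe40 at H3 exceeded R24 by 0.52 ± 0.05 over mouse means (9.04, 9.17 and 8.95 at H3, against 8.56, 8.53 and 8.52 at R24; adjusted p = 3.95e-06; 1.25% of all probe sets called higher), so that its rise at H3 was present against both groups with the same elapsed hour modulo 24. Both groups had also spent 24 hours in home cages after the chamber, which H3 mice had not. The rise against R24 was called by region in cerebral cortex (0.71) and cerebellum (0.70), 2 of 70 pairs, where 0.167% of all pairs were called higher. The cortex call (adjusted p = 0.0454) was lost in 21 of the 24 fits that each left out 1 array, and the cerebellum call (adjusted p = 0.0376) in 7, without H3 1, 2 or 3, R1 1 or R24 1, 2 or 3 (0.64 to 0.78). R24 itself differed from control in none of the 70 pairs and in none of the 10 genes over arrays (0.0866% of all probe sets called higher and 0.14% lower) or mouse means (0% called higher). At an unadjusted p below 0.05 there were 4 higher and 1 lower pairs by limma, where 2.55% of all pairs were higher and 2.39% lower. Core clock and glucocorticoid-induced genes at R24 are given below. The region calls against control did not all hold against R24. For Bhlhe40 the midbrain change at H3 was 0.54 (adjusted p = 0.0963) and no longer passed, while the cerebellum change at R1 did (0.77, adjusted p = 0.0223). For Nr1d1 at R1 the hippocampus (0.31, adjusted p = 0.407) and striatum (0.67, adjusted p = 0.107) no longer passed, midbrain did (0.45, adjusted p = 0.0418), and cerebellum passed (0.64, adjusted p = 0.0297) where it had not against control. In the hippocampus Nr1d1 at R24 was itself 0.32 above control without passing (adjusted p = 0.753). Dbp at H3 was below R24 by 0.51 on the log2 scale with no overlap between the 3 mice each, passing over arrays (adjusted p = 4.64e-08) but not over mouse means (adjusted p = 0.0559). It passed there in 4 of the 24 fits that left out 1 mouse, those without control 1, control 2, H3 1 or R12 2 (-0.66 to -0.51, adjusted p of 0.0184 to 0.0487), and was weakest without H3 2 (-0.40, adjusted p = 0.256). Groups did not overlap in this direction for 11.3% of all probe sets over mouse means. Nr1d2 was lower by 0.17 over arrays (adjusted p = 0.000337; 4.4% of all probe sets called lower; -0.10 without number 2, adjusted p = 0.271) and did not pass over mouse means (adjusted p = 0.173).

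Dbp was also compared between R12 and R24, which lie 12 hours apart. Its averaged difference there (-0.56) was the largest of the 10 comparisons made. H3 against R24, at the same elapsed hour modulo 24, came close (-0.51), and the 2 differences were not tested against each other. Dbp intensity in the striatum was 943, 1003 and 1057 at R12, against 1415, 1419 and 1572 at R24. In the pons and medulla it was 346, 409 and 326 at R12, against 689, 732 and 578 at R24. The R12 arrays lay below the R24 arrays in 5 of 7 regions (not in cerebral cortex or cerebellum), where 4.31% of all pairs did so. The averaged difference was -0.56 ± 0.08 over arrays (adjusted p = 2.58e-07), the second Dbp probe set gave -0.57 and Nr1d2 -0.18 (adjusted p = 0.00677), lost without number 1 or 3 (adjusted p = 0.351 and 0.34). These 2 genes were lower over arrays in a comparison in which 0.0533% of all probe sets were called lower. Their p-values over arrays are too small, because their regions deviated together more than the block allows for. Over mouse means 0% of all probe sets were called lower. Over mouse means the Dbp difference was the same size, with R12 at 9.10, 9.35 and 8.93 and R24 at 9.78, 9.73 and 9.55 and no overlap (4.78% of all probe sets), but its unadjusted p of 0.00115 in limma did not survive adjustment (adjusted p = 0.585). By region none of the 70 pairs passed (0% of all pairs did), and 13 were lower, 0 higher, at an unadjusted p below 0.05, where 2.05% of all pairs were lower. Bhlhe40 did not pass in this comparison (adjusted p = 0.66 over mouse means).

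At R1 against H3, Dbp was higher by 0.33 and Nr1d1 by 0.24 over arrays (adjusted p = 0.00156 and 0.0092), neither passing over mouse means (adjusted p = 0.361 and 0.213), and 2.05% of all probe sets were called higher. Without number 2 neither passed over arrays (adjusted p = 0.0612 and 0.432), nor did Nr1d1 without number 3 (adjusted p = 0.0540). Bhlhe40 differed by less than its spread between these times, with 9.06, 8.97 and 9.03 at R1 and 9.04, 9.17 and 8.95 at H3. Over the whole course, mouse means of Bhlhe40, Nr1d1 and Dbp passed the F-test over the 8 groups (adjusted p = 6.53e-08, 0.000514 and 0.0429), as did the second Dbp probe set (adjusted p = 0.0264) and the second Tef probe set (adjusted p = 0.0412), while the lead of Tef did not (adjusted p = 0.169), where 11.7% of all probe sets passed.

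The scatter of Dbp between mice of the same time point was shared with other clock genes. After the mean of each time point was subtracted, the deviation of Dbp over the 24 mice was compared with that of the other 9 genes and of 11 core clock genes, 20 relations in all, by exact permutation of the mice within time points with Benjamini-Hochberg adjustment (two-sided). The permutation treats time points as independent. Nr1d2 of number 3 lay below its mean at every time but control, and Npas2 of number 1 at every time but R3. Dbp kept no single direction in any number. An offset shared by a number across time points cannot be told apart from scatter of single mice, here or between separate regions. Nr1d2 followed Dbp most closely (r = 0.89, adjusted p = 0.00271; rho = 0.84, adjusted p = 0.00484). Arntl, the gene that REV-ERB represses, ran opposite (r = -0.87, adjusted p = 0.00271; rho = -0.87, adjusted p = 0.00372). Tef (r = 0.74, adjusted p = 0.0227; rho = 0.65, adjusted p = 0.0275), Ciart, a repressor of CLOCK and BMAL1 (r = 0.75, adjusted p = 0.0136; rho = 0.70, adjusted p = 0.0235), and Npas2, the partner of BMAL1 (r = -0.73, adjusted p = 0.0136; rho = -0.69, adjusted p = 0.0235), also passed.

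In control 2, for example, Dbp was 0.39 below its time-point mean and Nr1d2 0.12 below, while Arntl was 0.20 above and Npas2 0.18 above. In H3 replicate 1 Dbp was 0.29 above its mean and Nr1d2 0.13 above, with Arntl at -0.08 and Npas2 at -0.17. These mice had the Dbp values farthest from the median, and without them r was 0.85 for Nr1d2, -0.82 for Arntl, 0.58 for Tef, 0.64 for Ciart and -0.62 for Npas2. Over the 22516 brighter probe sets r with Dbp lay between -0.42 and 0.45 from the 5th to the 95th percentile. Nr1d1 (r = 0.12), Bhlhe40 (r = 0.21), Hlf, Bhlhe41, Rora and Rorb did not pass, nor did Nfil3 (r = -0.57, adjusted p = 0.119), Per2 (r = 0.54, adjusted p = 0.0715) or Cry2 (r = 0.54, adjusted p = 0.0732).

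The values above were read on the same arrays, so the relation was also taken between regions that share none. Dbp averaged over cerebral cortex, hippocampus and striatum tracked Dbp averaged over the other 4 regions (r = 0.86, rho = 0.82). This measures the same thing as the intraclass correlation of 0.65 for Dbp, which was already known. It is given as a description and is not separate support. With Dbp from the 3 regions and the other gene from the 4, r was 0.93 for Nr1d2, 0.80 for Tef, 0.61 for Ciart, -0.73 for Arntl and -0.77 for Npas2, all passing by exact permutation (adjusted p of 0.000202 to 0.0374). With the regions exchanged r was 0.62, 0.34, 0.64, -0.57 and -0.56 in the same order, and none passed (adjusted p = 0.151 or above). Against the 12 glucocorticoid-induced genes, several of which also varied between mice (intraclass correlation of 0.75 for Sgk1 and 0.68 for Zbtb16), the Dbp deviation passed with none (r from -0.44 to 0.47, adjusted p = 0.711 or above).

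**Figure D5:**
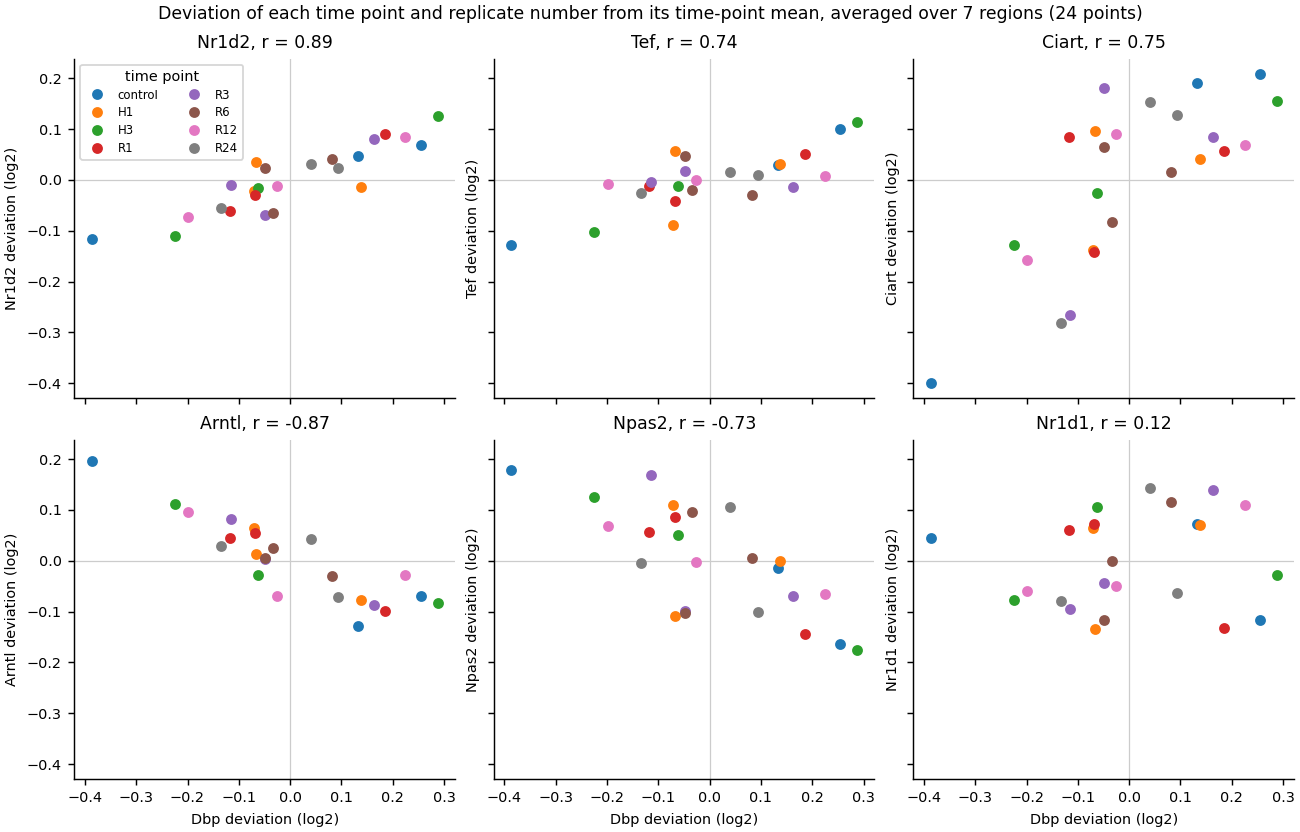
Deviation of 6 clock genes (y axis) against that of Dbp (x axis), both in log2 units from the mean of the time point and averaged over 7 regions. Each of the 24 points is 1 time point and replicate number, coloured by time point. Nr1d2, Tef and Ciart rise with Dbp (r of 0.89, 0.74 and 0.75), Arntl and Npas2 fall (r of -0.87 and -0.73) and Nr1d1 does not follow (r = 0.12).

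Other genes of the clock and of the pathways that could reach it were counted on the same scale. Of 11 core clock genes, by region, 1 of 77 pairs was higher at H3 (Ciart in pons and medulla, 0.93) and 7 at R1, of which 6 were Ciart, at 1.04 to 1.44, and 1 was Per1, the early-response member of the Per genes, in midbrain (0.95). None was lower. Over all pairs 0.157% were called higher and 0.153% lower at H3, and 0.158% higher and 0.25% lower at R1. Over mouse means Ciart rose by 0.66 at H3 and 1.17 at R1 (adjusted p = 0.0133 and 5.64e-05) and Per1 by 0.47 at R1 (adjusted p = 0.00112), while Arntl changed by 0.08 at H3 and -0.06 at R1 (adjusted p = 0.741 and 0.749). The median over the list was 0.01 at H3 and -0.02 at R1, beside -0.01 at both times over all probe sets. At R24 no pair was called (0% of all pairs). Over mouse means at R24, Per1 (-0.29) and Per2 (-0.27) lay below every control and Per3 (0.21) above. None of them passed in limma (adjusted p = 0.752, 0.861 and 0.899), and the other genes of the list overlapped the controls. Of all probe sets 4.6% lay below and 4.9% above without overlap.

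Of 18 HIF target genes, 4 of 126 pairs were higher at H1, 15 at H3 and 16 at R1, none was lower, and the median over the list was 0.16 at H3 and 0.20 at R1, with Ddit4, a stress-induced inhibitor of mTOR signalling, higher in 7 of 7 regions at H3 (1.25 to 1.69) and Vegfa, the endothelial growth factor, in 6 (0.68 to 0.85). At R24 none was called (0% of all pairs). For this list and the next, the share of all pairs called higher was 0.0276% at H1, 0.157% at H3, 0.158% at R1 and 0.00634% at R3. The share called lower was 0.00254%, 0.153%, 0.25% and 0.00254%. Of 12 glucocorticoid-induced genes, which include Ddit4 and Per1 of the other lists, 4 of 84 pairs were higher at H1, 19 at H3, 21 at R1 and 3 at R3, none was lower, and the median was 0.18 at H3 and 0.42 at R1, among them Errfi1, an EGF receptor inhibitor, in 6 regions at H3 (0.61 to 1.10) and Sgk1, a kinase of sodium transport, in 4 (1.24 to 1.48). At R24 the median of the glucocorticoid-induced genes was -0.33 from control, with no pair called (0% of all pairs). Bhlhe40 rose at H3 and R1 and Nr1d1 at R1, times at which both lists had members called, and the part of either pathway in those rises was not tested. The genes whose course over the 56 group means was most like that of Bhlhe40 were Tmeff2 (r = 0.86), Txnip (r = 0.84) and Chic2 (r = 0.84), and of Nr1d1 Bend3 (r = 0.82), Ica1 (r = 0.81) and Gpr146 (r = 0.78), given as descriptions because all means share the same arrays.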

How the data were processed

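The authors deposited linear signal intensity per probe set, with a column for each Mouse Genome 430 2.0 array. The submitters' processing notes name GCOS 1.3. According to the methods, arrays were summarised with GCRMA, quantile normalized and set relative to sham, which these values do not show: they are linear, with an equal trimmed mean on every array and unequal quantiles, and what made them from the scans is not given in the sources used here. Groups and replicate numbers came from the labels, which do not state that a number marks a mouse, so p-values measure the spread between these samples. The members and gene lists were chosen with earlier results of these data known.

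Values were transformed as log2(intensity + 16). Each region was fitted in limma 3.58.1 (R 4.3.3) with a mean for each of 8 groups (24 arrays), and p-values were adjusted by Benjamini-Hochberg over 45037 probe sets, array controls left out, at 0.05. The regions were also fitted together, arrays of the same time point and number forming a random block (consensus correlation 0.0369), for changes averaged over regions and differences between them. Mouse means and the relations with Dbp were added after the data were seen. Each gene is given by its probe set of highest mean intensity, and all genes of the member list are named. Scripts were tested on simulated data. Alternatives were another constant (1 or 32), quantile normalization, median centring, a filter at the median level, trended and robust variances, the replicate number as a block, the second probe set, the methods' t-test, R24 as the reference, and leaving out replicates. Bhlhe40, Nr1d1 and Nfil3 have 1 probe set each and kept it under the second probe set. That alternative therefore could not change the calls of Bhlhe40 and Nr1d1, which have no check by another probe set. With 3 arrays per group, their number limits the precision. Promoter sequences came from RefSeq, and figures were drawn in matplotlib 3.10.9 (Python 3.11.15).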

Additional observations from a re-analysis of the deposited data

How the results depend on the processing

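Bhlhe40 averaged over regions at H3, at R1 and at H3 against R24, and Nr1d1 at R1, passed in all 38 alternatives tried on averaged values, and no called value changed sign. Of these 38, 24 were the fit of mouse means without 1 mouse. The methods' t-test, R24 as the reference for R1, trended and robust variances and the second probe set were tried by region only. The counts by region were less stable. Of 70 pairs, the methods' t-test after adjustment called 0 at H3 (2 in limma), 0 at R1 (4) and 0 at H3 against R24 (2). The last count was also 0 with a constant of 1, 1 with quantile normalization, 1 with median centring, 4 with the filter at the median level and 4 with trended and robust variances. The 8 pairs of the F-test became 4 with a constant of 1, 13 with the filter and 13 with trended and robust variances. Over arrays, the 1 gene higher at R3 became 0 with a constant of 1 and 0 with quantile normalization, and the 2 lower at R12 became 1 with quantile normalization.

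Over mouse means, the genes called were 1 higher at H3 (2 over arrays), 0 lower at H3 (2), 0 lower at R1 (1), 0 higher at R3 (1), 0 lower at R12 (2), 0 higher at R1 against H3 (2), 0 lower at R12 against R24 (2) and 0 lower at H3 against R24 (2). With median centring of mouse means the 1 gene higher at H1 became 0. With replicate number as a block, mouse means gave 2 higher at H3 and 1 higher at R1 against H3. In the region fits the replicate block gave 2 pairs at H3 and 4 at R1, as without it. Over the 21 region and number sets, same-numbered samples of different time points had a median correlation of 0.039 to 0.126, above 0 in all 21, with single pairs from -0.129 to 0.249. Not every pair was over 0.1, so the numbers were not taken to pair the samples across time points. That rule cannot exclude an offset shared by a number in single genes. Nr1d1 of number 1 lay below its time-point mean at every time point, from -0.13 at H1 to -0.03 at H3. Fits without the number as a block leave such an offset in their spread. Leaving out replicates gave 0 to 3 pairs at H3, 0 to 5 at R1, 0 to 2 at H3 against R24 and 0 to 9 in the F-test. Averaged over regions it gave 0 to 1 gene higher at H1, 1 to 2 higher and 0 to 2 lower at H3, 0 to 1 lower at R1, 0 to 1 higher and 0 to 1 lower at R3, 0 to 2 lower at R12, 0 to 2 higher at R1 against H3, 0 to 2 lower at R12 against R24, and 1 to 2 higher and 0 to 2 lower at H3 against R24. The 23 probe sets that differed between regions in controls became 20 to 21. The cause of these shifts was not tested. With dim signal, little can be said of Nfil3 and Bhlhe41.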
